A study of Rattus norvegicus with 110 samples.

Results

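Zbtb16 (ENSRNOG00000029980.3) was 1 of 31998 gene identifiers in tables of RNA sequencing counts from the livers of 83 F2 male rats and the kidneys of 27 of them. It was chosen by its level at 50% CCl4 against vehicle and by its level in liver against kidney, so these comparisons are given as descriptions without a test. The study itself had picked the gene on the same liver libraries by its relation to the treatment of the F0 grandsires and had also named it among the genes it related to F0 treatment over the whole kidney transcriptome. Tests of ancestry in liver are therefore not independent evidence, and the kidney result was known when the gene was taken up here.

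All animals were adult males of the outbred Sprague Dawley strain. Neither sire nor grandsire of cohort A (groups 11 to 13) had been treated. In cohort B (groups 14 to 16) the F1 sire had been treated, in cohort C (groups 17 to 19) the F0 grandsire, and in cohort D (groups 20 to 22) both of them. Treated F0 and F1 males had received 50% CCl4 in olive oil, a solvent that injures the liver and leads to fibrosis, by oral gavage 3 times per week for 6 weeks. After 2 weeks of recovery they were mated with untreated females, and ancestors of the control lineages had received olive oil. The F2 males themselves were given 0.5 mL/kg of plain olive oil (vehicle, groups 11, 14, 17 and 20) or of oil with CCl4 at 8% (low dose, groups 12, 15, 18 and 21) or 50% (high dose, groups 13, 16, 19 and 22), and were sampled on day 39. There were 7 males per group and 6 in group 17, and kidney was sequenced from the vehicle males of all 4 cohorts. The males came from 34 litters and 17 F0 sires, 8 control and 9 treated. Most control F0 sires had descendants in both cohorts A and B and most treated ones in both C and D, and the animals were necropsied on 4 dates, each litter on a single date.

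ZBTB16, also called PLZF, is a transcription factor with a BTB domain and zinc fingers that recruits corepressor and histone deacetylase complexes to its target genes. It is known for maintaining spermatogonial stem cells and for the development of natural killer T cells. Its transcription is strongly induced by glucocorticoids in many tissues, and in liver it has been linked to gluconeogenesis. In whole tissue, fewer cells of a type and less RNA per cell cannot be told apart.

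The liver libraries held 31638559 to 51343589 counts and the kidney libraries 21961746 to 35055218. Zbtb16 had 27 to 3288 counts per library, so counting error was small beside the spread between animals at all but the lowest levels. Values are given as CPM, the usual scaling of a count by the library total, and on this scale Zbtb16 lay between the 56.2nd and the 95th percentile of all identifiers of a library. Tat, a hepatocyte enzyme, had a mean of 849 CPM in liver and stayed under a mean of 1 CPM in kidney. Lrp2, the endocytic receptor of the kidney tubule, had 18.6 CPM in liver and 4035 CPM in kidney, so both organs carried their labelled marker.

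Zbtb16 differed between animals of the same group far more than most genes did. In cohort A livers it ranged from 8.33 to 66.5 CPM at vehicle (median 29.0, mean 34.3 ± 19.2 SD, n = 7), from 9.49 to 65.5 CPM at 8% (median 27.2, mean 32.6 ± 19.6, n = 7) and from 1.94 to 42.5 CPM at 50% (median 35.0, mean 27.9 ± 15.2, n = 7). The high-dose group of this cohort thus had the highest of the 3 medians and the lowest of the 3 means. In cohort B the values ran from 1.97 to 66.8 CPM at vehicle (median 18.6, mean 22.9 ± 23.2, n = 7), from 1.34 to 49.3 at 8% (median 11.7, mean 22.4 ± 21.7, n = 7) and from 2.03 to 44.8 at 50% (median 11.1, mean 15.7 ± 14.9, n = 7). High and low animals stood in each of these groups, and the groups overlapped over most of their range.

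The F0-treated cohorts were lower throughout. In cohort C the values ran from 1.82 to 16.5 CPM at vehicle (median 6.98, mean 8.08 ± 6.10, n = 6), from 1.83 to 31.5 at 8% (median 4.44, mean 8.25 ± 10.7, n = 7) and from 0.905 to 11.3 at 50% (median 3.05, mean 3.81 ± 3.51, n = 7). In cohort D they ran from 1.0 to 8.81 CPM at vehicle (median 2.80, mean 4.09 ± 3.13, n = 7), from 1.38 to 4.38 at 8% (median 1.89, mean 2.51 ± 1.25, n = 7) and from 1.12 to 14.2 at 50% (median 2.93, mean 4.15 ± 4.59, n = 7). A single animal set the top of several of these ranges, namely replicate 4 of group 18, replicate 4 of group 19 and replicate 5 of group 22. After subtraction of the group means the SD of log2 CPM was 1.4 in liver, against a median of 0.34 over 12698 genes with a mean of at least 1 CPM, and 200 of these genes varied more. In kidney the SD was 1.42 against a median of 0.21 over 13778 genes, and 172 varied more.

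**Figure D1:**
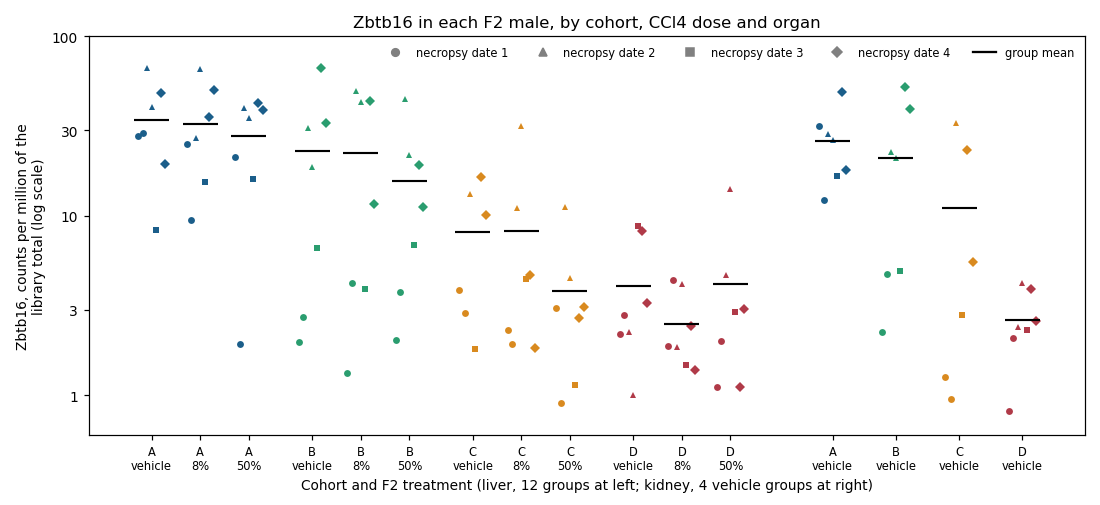
Zbtb16 in each F2 male in CPM of the library total on a log scale, for the 12 liver groups and the 4 kidney groups, ordered by cohort and dose. Each point is 1 animal. The dose groups within a cohort overlap, while the 21 cohort D livers lie between 1.0 and 14.2 CPM and the 21 cohort A livers between 1.94 and 66.5 CPM.

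The next question was how Zbtb16 stood at the doses of CCl4 within each ancestry. The mean at 50% was 0.815 of the vehicle mean in cohort A, 0.684 in B, 0.471 in C and 1.01 in D. Over all cohorts the means were 17.7 CPM at vehicle, 16.4 at 8% and 12.9 at 50% (n = 27, 28 and 28). The groups did not separate in any cohort. When each high-dose male was paired with each vehicle male of its cohort, the high-dose male was lower in 29 of 49 pairs in cohort A, 26 of 49 in B, 30 of 42 in C and 26 of 49 in D. At 8% the treated male was lower in 27 of 49, 24 of 49, 23 of 42 and 32 of 49 pairs. In cohort D the high-dose males were lower than the low-dose males in 21 of 49 pairs, where the other cohorts had 26 of 49, 27 of 49 and 30 of 49.

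How large the difference at 50% looked depended on the scaling of the libraries. On the library totals the log2 difference between 50% and vehicle was -0.29 in cohort A, -0.55 in B, -1.07 in C, 0.02 in D and -0.47 over the cohorts. TMM scaling, which sets the bulk of the genes level between libraries, gave -0.97 ± 0.67 (SE) in A, -1.21 ± 0.68 in B, -1.64 ± 0.72 in C, -0.50 ± 0.70 in D and -1.08 ± 0.35 over the cohorts. The scalings moved apart because the TMM factors averaged 0.836 at vehicle, 0.940 at 8% and 1.28 at 50%, with a highest value of 2.03. The median of all genes at 50% against vehicle was 0.61 higher on the library totals than under TMM, and Zbtb16 was below this median under both scalings. In cohort D its direction turned from lower under TMM to level on the library totals. The values by cohort also moved with the dates, and over 14 alternatives they ran from -1.45 to -0.29 in A, from -1.93 to -0.31 in B, from -2.20 to -0.96 in C and from -1.94 (without date 2, which holds replicate 5 of group 22) to 0.02 in D.

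In TMM-scaled CPM the group means at vehicle, 8% and 50% were 42.3, 36.1 and 21.6 in cohort A and 27.6, 23.8 and 11.9 in cohort B. They were 9.90, 8.48 and 3.13 in cohort C and 4.74, 2.63 and 3.37 in cohort D. Of 19004 genes tested, 72.2% passed an adjusted p of 0.1 for 50% against vehicle over the cohorts and 28.4% for 8%, so high-dose livers differed from vehicle livers in most of the transcriptome. For 8% against vehicle the log2 difference of Zbtb16 over the cohorts was -0.38 ± 0.34 under TMM and -0.19 on the library totals, and it ran from -0.94 without date 2 to 0.06 without date 4. By cohort it was -0.23, -0.21, -0.22 and -0.85 from A to D under TMM. Over 14 alternatives it ran from -0.69 to -0.07 in A and from -1.30 to -0.45 in D. In B it ran from -0.98 without date 2 to 0.59 without date 4 and in C from -1.34 to 0.60, so its direction was not settled in B and C. For 50% against 8%, where 64.8% of the genes passed, it was -0.70 ± 0.34 under TMM and -0.28 on the library totals, with -0.74, -1.0, -1.43 and 0.35 from cohort A to D under TMM. The direction in cohort D was not settled, since the log2 difference ran from -0.64 without date 2 to 0.86 without date 1 and from -0.45 to 0.17 with single animals left out (limma-trend).

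Whether the difference at 50% itself varied with ancestry was tested as an interaction. These contrasts are built from the values at 50% and vehicle by which the gene was chosen, so they are not independent of that choice. Against cohort A, the log2 difference between 50% and vehicle was changed by -0.24 ± 0.95 in B (95% interval -2.09 to 1.61), by -0.67 ± 0.98 in C (-2.59 to 1.24) and by 0.47 ± 0.97 in D (-1.42 to 2.37). The adjusted p was 1.0, 0.976 and 0.930 in edgeR's quasi-likelihood test. For 8% the changes were 0.02 ± 0.95, 0.01 ± 0.98 and -0.62 ± 0.97. These 6 contrasts share cohort A, and their intervals leave room for changes of several fold in either direction. No gene passed in any of them (0.0%) with edgeR, while 448 to 1567 genes had an unadjusted p under 0.05 and DESeq2 called 6 to 25.

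**Figure D2:**
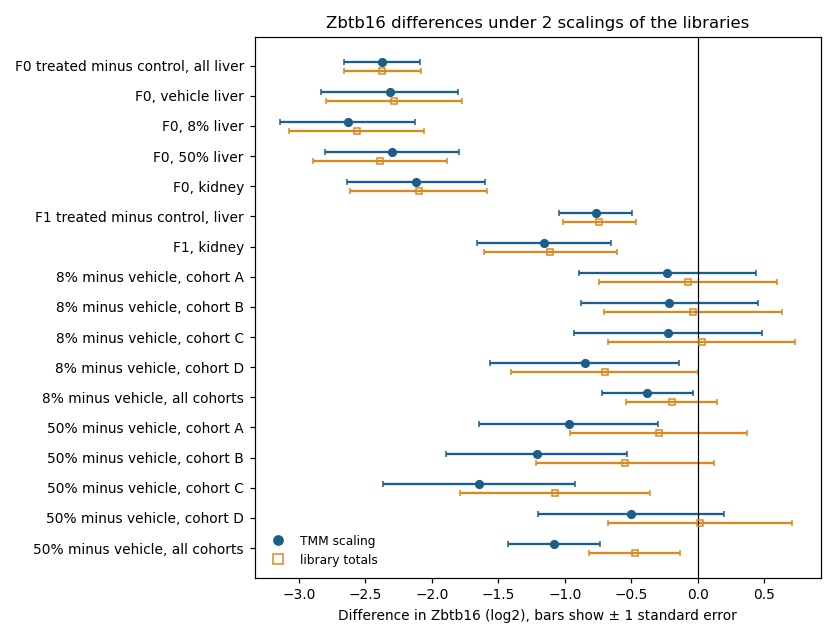
Log2 differences in Zbtb16 with bars of ± 1 standard error, for F0 and F1 treatment in both organs and for each dose against vehicle by cohort. Filled circles use TMM scaling and open squares the library totals. The F0 differences lie between -2.63 and -2.10 under either scaling, whereas the difference at 50% over the cohorts moves from -1.08 to -0.47.

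By treatment of the F0 grandsire the levels of Zbtb16 lay wide apart. The 42 livers of cohorts A and B ranged from 1.34 to 66.8 CPM (median 23.5, mean 26.0 ± 19.1) and the 41 livers of cohorts C and D from 0.905 to 31.5 CPM (median 2.93, mean 5.08 ± 5.79). The ranges overlapped, but the control median exceeded most values of the treated lineages. In a fit with F0, F1 and dose terms, Zbtb16 was lower in the F0-treated lineages by a log2 difference of -2.37 ± 0.29, or 5.19-fold (adjusted p 3.82e-08, edgeR). This was the smallest p of 19004 genes and the 28th largest difference, and 8.93% of the genes passed for this effect. Because the study selected the gene by this effect, neither rank is evidence apart from that choice.

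The F0 difference was present at each dose. It was -2.32 ± 0.52 at vehicle (adjusted p 0.0221, 3.07% of genes called), -2.63 ± 0.51 at 8% (adjusted p 0.00691, 0.363% called) and -2.30 ± 0.50 at 50% (adjusted p 0.0263, 0.121% called), all with edgeR. The call was lost at vehicle without date 1 or 4 (adjusted p 0.105 and 0.126), at 8% without date 4 (0.255) and at 50% without date 2 or 4 (0.155 and 0.349), while the differences there ran from -2.79 to -1.92. With single animals left out (limma-trend) it was lost in 8 of 83 fits at vehicle (adjusted p up to 0.163) and in 21 of 83 at 50% (up to 0.343), with differences of -2.35 to -1.92 and -2.52 to -2.06, each time without an animal of the dose compared. The F0 effect at 8% differed from that at vehicle by -0.31 ± 0.69 (95% interval -1.66 to 1.03), and the effect at 50% by 0.02 ± 0.71 (-1.37 to 1.41), both with an adjusted p of 1.0. For the first 0.716% of genes passed, and for the second none did with edgeR, with 1026 genes at an unadjusted p under 0.05 and 13 calls by DESeq2.

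Treatment of the F1 sire went with a smaller difference that did not pass the test over all genes. The log2 difference was -0.77 ± 0.28 (unadjusted p 0.00672, adjusted p 0.317, edgeR), and 0.2% of the genes passed. The study had kept genes with the same direction for F1 as for F0 treatment, so this direction is not independent evidence. The F1 difference was smaller than the F0 difference in these libraries, though that contrast between the terms was not tested.

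Animals of 1 sire are not independent, so the F0 difference was also taken over sires after the F1 and dose terms were subtracted. The mean log2 CPM was 4.71 ± 1.14 (SD) over the 8 control sires and 2.56 ± 0.50 over the 9 treated sires. Control sires ran from 3.00 to 5.81 and treated sires from 1.74 to 3.09, so the ranges met at the bottom of the control sires. The difference was -2.15 ± 0.44 (SE), with a two-sided exact permutation p of 0.000247 over sires.

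Among the vehicle livers, the 3 cohorts with treated ancestors were each compared with group 11, which all these comparisons share. The study had selected the gene by the comparisons of cohorts C and D with A, so their p values here are not independent evidence. Cohort B males were lower than cohort A males in 33 of 49 pairs, cohort C males in 39 of 42 and cohort D males in 48 of 49. The log2 difference was -0.62 ± 0.67 for cohort B (adjusted p 0.938, 0.0105% of genes called), -2.10 ± 0.74 for cohort C (adjusted p 0.172, 0.274% called) and -3.15 ± 0.73 for cohort D (adjusted p 0.00825, 5.53% called), all with edgeR. Cohort D was thus 8.91-fold lower than cohort A, the sole comparison of the 3 past the threshold, though it missed the threshold without necropsy date 4 (-3.42, adjusted p 0.203, over 15 alternatives 0.000422 to 0.203). The difference for cohort B ran from -1.57 without date 4 to -0.24 without date 1, and that for cohort C from -2.65 to -1.79 over its alternatives. In mean log2 CPM the differences were -1.22 for B, -2.28 for C and -3.18 for D. By two-sided exact permutation of these values between the groups, adjusted over 6 such tests in both organs, p was 0.195 for B, 0.0140 for C and 0.00350 for D. This test took single males as independent, though some shared a sire, and it did not keep to the dates.

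Cohorts C and D were also below cohort A in the dosed livers. At 8% cohort A males exceeded those of cohort B in 33 of 49 pairs, of C in 44 and of D in 49 of 49. At 50% the counts were 33, 44 and 44 of 49, and cohorts C and D had medians of 3.05 and 2.93 CPM and means of 3.81 and 4.15 CPM, the latter raised by replicate 5 of group 22 (14.2 CPM), so C and D had no clear order at that dose. All 7 low-dose males of cohort D lay below the lowest low-dose male of cohort A, and 2 of 7 did so at 50%.

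Kidney, which had seen no F2 dose of CCl4 in these males, gave a second organ of the vehicle animals. Cohort A kidneys ranged from 12.3 to 48.9 CPM (median 26.6, mean 26.1 ± 12.3, n = 7) and cohort B kidneys from 2.25 to 52.3 CPM (median 21, mean 21 ± 19.1, n = 7). Cohort C kidneys ranged from 0.961 to 32.9 CPM (median 4.17, mean 11.1 ± 13.6, n = 6) and cohort D kidneys from 0.821 to 4.23 CPM (median 2.41, mean 2.62 ± 1.15, n = 7). Cohort C was split widely, with 2 kidneys above 20 CPM and the others below 6 CPM, whereas every cohort D kidney was below every cohort A kidney.

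By F0 treatment, kidney Zbtb16 was 23.6 ± 15.7 CPM in the control lineages (n = 14) and 6.54 ± 9.84 CPM in the treated lineages (n = 13). The log2 difference was -2.12 ± 0.52 (unadjusted p 0.000348), which did not pass over all genes (adjusted p 0.237, edgeR, 0.0109% called). With the replicate number as a block, which stands for the necropsy date here, the difference was -2.29 (adjusted p 0.0558, 0.0327% called), and with the date itself as a block it was -2.22 (adjusted p 0.0283, 0.0381% called). DESeq2 gave -2.16 (adjusted p 0.0212, 0.419% called). Over 16 alternatives the adjusted p ran from 0.0212 to 0.875, and without cohort D the difference was -1.26 (adjusted p 0.837, edgeR). Over the 17 sires the kidney difference was -2.19 ± 0.55, with an exact permutation p of 0.00173.

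Between single cohorts in kidney, cohort D was lower than cohort A by -3.39 ± 0.72, or 10.5-fold (adjusted p 0.0451, edgeR, 0.702% called), in 49 of 49 pairs. The exact permutation p of this comparison, 0.000583, was the smallest that 7 against 7 animals can give. As in liver, the exact tests took males that shared a sire as independent. In edgeR the call was lost without date 2 (adjusted p 0.412) or date 4 (0.256), and the 15 alternatives ran from 0.000458 to 0.412. Cohort C differed from A by -1.26 ± 0.68 and was lower in 33 of 42 pairs, and cohort B by -0.37 ± 0.63 in 30 of 49 pairs, with adjusted p of 0.883 and 1.0 in edgeR. For C and B, 0 genes (0.0%) passed with edgeR, 1081 and 878 had an unadjusted p under 0.05, and DESeq2 called 3 each. On mean log2 CPM cohort C was lower than A by a difference of -2.26 (exact permutation p 0.0291, adjusted 0.0437 over 6 tests) and the difference for cohort B was -0.91 (adjusted exact p 0.217). The difference for C ran from -2.26 to -0.80 over 15 alternatives. The F1 term was -1.15 ± 0.50 (adjusted p 0.720, edgeR) and ran from -1.53 to -0.38 over 14 alternatives. For that term, 0 genes were called by edgeR or DESeq2 and 1225 had an unadjusted p under 0.05.

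Zbtb16 also differed between the necropsy dates, which the study protocol gives for each animal. Livers of dates 1 to 4 averaged 6.68, 25.3, 6.48 and 19.9 CPM (n = 24, 23, 12 and 24), and kidneys 7.01, 19.8, 6.66 and 24.2 CPM (n = 8, 7, 4 and 8). Dates 2 and 4 were the high ones in both organs. Beside the group means, date 2 exceeded date 1 in liver by 1.99 on the log2 scale, date 3 by 0.13 and date 4 by 1.42 (F = 17.1, adjusted p 8.71e-06, edgeR), and 7.16% of the genes passed. In kidney the corresponding differences were 1.93, 0.27 and 2.11 (F = 7.84, unadjusted p 0.000838, adjusted p 0.854, edgeR). No kidney gene passed for date (0.0%) and 973 had an unadjusted p under 0.05. Each litter was necropsied on a single date, so date and litter cannot be told apart. The test in liver took littermates as independent. Animals were fasted overnight by the study protocol, and time of day at necropsy and RNA isolation per animal were not given in the sources used here, so what distinguishes the dates was not tested.

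The dates were set side by side in each cohort. In cohort A livers the means of dates 1 to 4 were 19.1, 45.8, 13.3 and 39.0 CPM, and in cohort B livers 2.68, 34.7, 5.8 and 30.9 CPM. In cohort C they were 2.49, 14.3, 2.47 and 6.48 CPM, and in cohort D 2.40, 4.69, 4.41 and 3.25 CPM. Cohort D thus stayed within a narrow range over the dates, but whether the date pattern differed between cohorts was not tested.

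**Figure D3:**
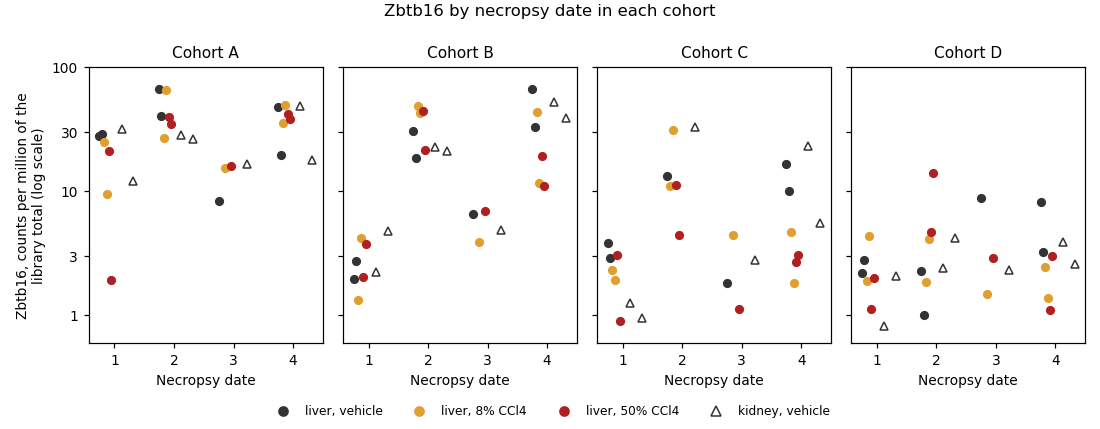
Zbtb16 in CPM on a log scale against the necropsy date, with 1 panel per cohort. Filled points are livers coloured by dose and open triangles are vehicle kidneys, with 1 point per animal. In cohorts A, B and C the liver means of dates 2 and 4 exceed those of dates 1 and 3, while in cohort D the liver means lie between 2.40 and 4.69 CPM.

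All groups were spread over the dates, so the comparisons could be repeated within each. Beside F1 and dose terms, the F0 difference in liver was negative on all 4 dates, with -1.40, -2.67, -1.66 and -3.11 in log2 CPM from date 1 to date 4. On date 1 the liver means were 19.1 CPM in cohort A and 2.68, 2.49 and 2.40 CPM in B, C and D. Cohort B, a control lineage of F0, was thus like C and D on that date, and the F1 term there was -1.28. In kidney the F0 differences were -2.72, -1.56, -1.82 and -2.61. The difference between 50% and vehicle, averaged over cohorts, was less even, with -0.90, 0.36, -0.31 and -1.23 on the library totals and -1.52, -0.27, -0.97 and -1.79 under TMM. On date 2 the high-dose livers were lower in 2 of 4 cohorts on the library totals, and the mean there rested on cohort D (2.43), which held the 14.2 CPM of replicate 5 of group 22. With each date left out in turn, the TMM difference at 50% over the cohorts ranged from -1.71 without date 2 to -0.65 without date 4.

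Liver and kidney carried similar levels of Zbtb16. Kidney was the lower organ in 15 of the 27 vehicle males, and the ratio of kidney to liver CPM had a median of 0.792 and ran from 0.262 to 4.23. By cohort the median ratio was 0.918 in A, 1.13 in B, 0.978 in C and 0.743 in D. Divided by the average transcript length of each organ, the median level was 3.58 CPM per kilobase in liver and 2.15 in kidney, and the median ratio was 0.754. The mean log2 difference of kidney minus liver was -0.24 (SD 0.954) on the library totals and -1.20 under TMM scaling of both organs together, so its size depended on how libraries of different organs were made comparable.

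Animals with high Zbtb16 in liver also tended to have high Zbtb16 in kidney. After subtraction of the group means the correlation of log2 CPM over the 27 males was r = 0.748 (permutation p 0.00014, adjusted 0.00102 over 12 relations) and rho = 0.764 (permutation p 0.00017). Without the 2 animals farthest from the median liver value, r was 0.665. With the date means subtracted as well, r was 0.572 (permutation p 0.00107, adjusted 0.00321) and rho 0.625, and 0.633 was left without the 2 farthest animals. By cohort, with no test, r was 0.582 in A, 0.974 in B, 0.844 in C and 0.0722 in D (n = 7, 7, 6 and 7). In cohort D, where both organs were low in all animals, the organs did not rank the males alike.

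**Figure D4:**
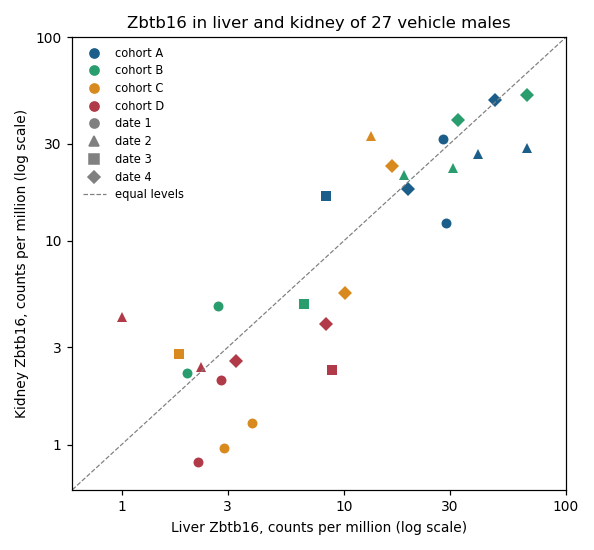
Kidney against liver Zbtb16 of the 27 vehicle males, both in CPM on log scales, with 1 point per male. Colours give the cohort, shapes the necropsy date and the dashed line equal levels. Males of cohort B run from below 5 CPM in both organs to above 50 CPM in both, and males of cohort D stay below 9 CPM in liver and below 5 CPM in kidney.

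Littermates in different dose groups were compared in the same way, with 1 pair per litter. Between vehicle and 8% males the group-centred correlation was r = 0.591 over 22 litters (permutation p 0.0301, adjusted 0.0559) with rho = 0.500 (permutation p 0.0518), and r was 0.371 without the 2 farthest litters. With the date subtracted it was 0.428 (adjusted permutation p 0.0778). Between vehicle and 50% males r was 0.458 over 20 litters (permutation p 0.0436, adjusted 0.0654) with rho = 0.406 (permutation p 0.0969), and -0.0889 with the date subtracted. Litters were each necropsied on a single date, and of these 4 relations the first 3 had an adjusted p between 0.0559 and 0.0778, with r as low as 0.308 without the 2 farthest litters.

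The deposited average transcript length, a second readout of Zbtb16 that reflects which transcripts the reads were assigned to, was 2409 bases at vehicle, 2399 at 8% and 2411 at 50% in liver. Relative to vehicle, it was shorter by 10.2 bases at 8% (difference -10.2, permutation p 0.747) and differed by 1.87 bases at 50% (permutation p 0.946). The mean was 2440 bases in the F0-treated lineages and 2374 in the control lineages, a difference of 66.7 bases (permutation p 0.0104, adjusted 0.0313 over 3 tests). This test took the 83 livers as independent, which those of 1 sire are not, and was not repeated over sires. By cohort the mean length was 2316 bases in A, 2431 in B, 2459 in C and 2422 in D, so cohort A stood apart and cohort B, a control lineage of F0, was like C and D. The medians differed by 12.6 bases (adjusted permutation p 0.950), so the difference was in the means and not in the medians. Within groups the length hardly followed the level (r = 0.166 over 83 livers and 0.294 over 27 kidneys). With the lengths as offsets the F0 difference in liver was -2.40 in place of -2.37.

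To set Zbtb16 beside other genes, log2 CPM was correlated with it after subtraction of the group means, which removes differences by ancestry and dose. Gene symbols came from the study's list of genes related to F0 treatment alone and covered 1480 of 12697 liver genes and 1436 of 13777 kidney genes, so genes without a symbol remain unnamed. The points share library depth, litter and necropsy date, and the coefficients are given as descriptions. In liver the named genes most like it were Lpin1, which encodes the phosphatidate phosphatase lipin (r = 0.756), Sdc4, the heparan sulfate proteoglycan syndecan (0.707), Insc, an adaptor of spindle orientation (0.667), Il6r, the interleukin receptor subunit (0.666), and Mtss1, a protein that binds actin and membranes (0.655), over 83 libraries. With the dates subtracted, Lpin1 still had 0.656. The named genes most opposed were Cldn2, a tight junction claudin (-0.623), Zfp385b (-0.600), the protein kinase Prkd3 (-0.576), Eepd1 (-0.529) and Hells, a helicase of chromatin remodelling (-0.521).

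In kidney the 5 named genes most like Zbtb16 differed from those of liver. They were Frmd4b (r = 0.893), the zinc finger and homeobox repressor Zhx3 (0.854), the kinase Map3k6 (0.811), Tnrc6b, a component of microRNA silencing (0.749), and the polyadenylation factor Wdr33 (0.742), over 27 libraries. The most opposed were Smtnl2 (-0.813), Klhl23 (-0.746), the steroid dehydrogenase Hsd17b2 (-0.737), the small GTPase Rras2 (-0.674) and Arhgef19 (-0.637). With the dates subtracted, Frmd4b had 0.748, Zhx3 0.764 and Smtnl2 -0.644. Lpin1 had 0.144 in kidney, and Frmd4b had -0.05 and Zhx3 0.49 in liver. Counting genes without a symbol as well, 2 had a correlation over 0.7 in liver and 23 in kidney, where there were fewer libraries. Over the 12 liver group means, Sdc4 (0.976), Pxmp4 (0.936), Lpin1 (0.922), Slc25a32 (0.921) and Ptp4a1 (0.915) came closest, all genes with a symbol because the study had related them to F0 treatment.

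**Figure D5:**
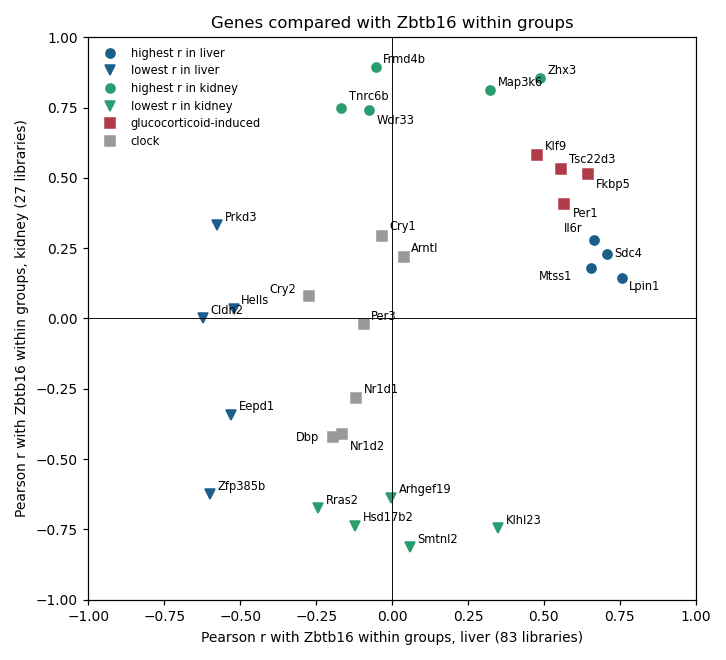
Pearson correlation with Zbtb16 within groups in kidney against that in liver, for the named genes most like or unlike Zbtb16 and for the glucocorticoid-induced and clock genes with a symbol. Lpin1 lies at 0.756 in liver and 0.144 in kidney and Frmd4b at -0.05 and 0.893, whereas Insc is not drawn because it was under 1 CPM in kidney. Fkbp5, Tsc22d3, Klf9 and Per1 lie above 0.4 in both organs.

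Genes that glucocorticoids induce were taken as a list because Zbtb16 is itself such a gene. Of 15 listed genes, 5 had a symbol, fewer than 80%, so no statement is made about the list as a whole. Within groups, the correlation with Zbtb16 in liver was 0.65 for Fkbp5, the glucocorticoid receptor cochaperone, 0.57 for the clock gene Per1, 0.56 for Tsc22d3, which encodes GILZ, 0.48 for the transcription factor Klf9 and 0.22 for tyrosine aminotransferase, Tat. In kidney it was 0.51 for Fkbp5, 0.41 for Per1, 0.53 for Tsc22d3 and 0.58 for Klf9. With the dates subtracted, the values in liver were 0.55 for Fkbp5, 0.47 for Per1, 0.31 for Tsc22d3 and 0.45 for Klf9. In kidney 0.48 was left for Fkbp5 and 0.41 for Klf9, but 0.18 for Tsc22d3 and 0.02 for Per1.

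For F0 treatment in liver, all 5 of these genes were lower (log2 differences of -0.82 ± 0.12 for Fkbp5, -0.80 ± 0.19 for Tsc22d3, -0.92 ± 0.25 for Per1, -0.39 ± 0.13 for Klf9 and -0.44 ± 0.16 for Tat), with a median of -0.80 beside 0.02 over all genes, of which 3.79% were lower and 5.14% higher. They bear a symbol because the study found them related to F0 treatment in liver, so their number is no evidence of direction. In kidney their median was -0.65 beside 0.01 over all genes, and 0 of 5 passed with edgeR or DESeq2, with all 5 lower at an unadjusted p under 0.05, a limit that 1599 of 18374 kidney genes met in either direction. The largest of these kidney differences was that of Tat (-1.53), which was under a mean of 1 CPM in kidney. For 50% against vehicle in liver, Klf9 (-0.84) and Tsc22d3 (-0.54) were lower and the other 3 did not pass, where 34.4% of all genes were lower and 37.8% higher.

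The remaining lists were covered as thinly, with symbols chosen in the same way. Of 16 clock genes 8 had a symbol, and with F0 treatment 5 of them were higher in liver and 3 lower, beside 5.14% and 3.79% of all genes. The higher ones ran from 0.39 (Cry2) to 1.15 (Dbp) and the lower ones from -0.26 (Arntl) to -0.92 (Per1). At 50% 5 of the 8 were lower and 0 higher, beside 34.4% and 37.8% of all genes. Within groups the clock genes other than Per1 had correlations with Zbtb16 of -0.27 (Cry2) to 0.04 (Arntl) in liver. Among 27 other BTB zinc finger genes 5 had a symbol, and for F0 treatment Zbtb48 (0.28), Zbtb17 (0.18) and Zbtb5 (0.16) were higher and Zbtb2 (-0.18) lower, all far smaller than the difference in Zbtb16. Hic1, of the same family, had 0.34 and did not pass. The 3 gluconeogenic genes with a symbol of 8 listed, Ppargc1a (-0.57), Foxo1 (-0.39) and Tat, were lower with F0 treatment, while at 50% Ppargc1a was higher (0.75) and Foxo1 lower (-1.0).

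Markers of liver cell types were measured beside Zbtb16 where a symbol allowed it. With F0 treatment the macrophage genes Adgre1 and Cd163 (2 of 5 listed) were both lower by -0.30, and the pericentral hepatocyte genes Glul (-0.35), Cyp1a2 (-0.48), Slc1a2 (-0.55) and Rhbg (-0.42), 4 of 9 listed, were lower. At 50% Cyp1a2 (-1.26), Slc1a2 (-2.85) and Glul (-0.33) were lower and Rhbg was higher (1.91). Adgre1 was higher at 50% (0.39), while Cd163 had 0.02 and did not pass. The endothelial gene Kdr was lower at 50% (-1.05) and had 0.21 with F0 treatment, which passed with DESeq2 and not with edgeR. Among all genes, 3.79% were lower and 5.14% higher with F0 treatment, and 34.4% lower and 37.8% higher at 50%. Lymphocyte, stellate, biliary and periportal markers and the corepressor partners of ZBTB16 had no symbol here. The part of cell composition in the Zbtb16 differences was not tested. The study itself had shown Lpin1, Acer2 and Slc10a2 beside Zbtb16. Here Lpin1 (-1.21 ± 0.17) and the ceramidase Acer2 (-0.77 ± 0.10) were lower with F0 treatment in liver and the bile acid transporter Slc10a2 (0.42 ± 0.12) was higher. In kidney their differences were 0.03, -0.28 and -0.07, and 0 of 3 passed with edgeR, 1 with an unadjusted p under 0.05 and 1 with DESeq2, beside 2, 1599 and 77 of 18374 genes.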

How the data were processed

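Per the labels and the study's methods, the authors made stranded poly(A) mRNA libraries, sequenced them on a NovaSeq instrument, and quantified them with Salmon 0.14.0 and tximport. The deposited tables hold, for each gene, unnormalized estimated counts as whole numbers and an average transcript length. Zbtb16 and the gene lists were chosen with earlier results of these data known.

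Here Zbtb16 was divided by the library total (CPM, a pseudocount of 0.5 on the log2 scale). Genes whose counts summed to over 10 within some group were fitted with edgeR 4.0.16 (TMM, quasi-likelihood F test, R 4.3.3), Benjamini-Hochberg adjusted over 19004 liver or 18374 kidney genes, and called at an adjusted p under 0.1. Intervals are ± 1.96 SE. Doses and cohorts were contrasts of group means, while ancestral treatment entered as F0 and F1 terms with the dose. Permutation tests were exact or drew 100000 resamples. Alternatives were DESeq2 1.42.0, limma 3.58.1, other scalings, filters, blocks and units, and left-out animals or dates. In simulated data, 184 of 200 F0 changes of 0.5 in liver were recovered with 41 other calls, and 172 with 17 in kidney (log2, edgeR). For changes of 1 it was 198 with 65 in liver and 193 with 23 in kidney. In liver the other calls were a larger share than the threshold of 0.1 implies. The simulated counts had no structure of dates, litters or sires.

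Genes named beside Zbtb16 are the 5 symbols with the highest and the lowest correlation in each organ, the 5 highest over liver group means, up to 4 members of each list per contrast, all members of lists of 6 or fewer, and the genes the study showed beside it.

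Replicate numbers were taken from the animal numbers. By the study protocol each number lies on 1 necropsy date (10 of 10 in liver, 7 of 7 in kidney), which is where the pairing comes from. Residual profiles of the same number correlated by 0.0966 on average within a cohort, where 59 of 77 pairs share a litter, and by 0.0107 between cohorts.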

Additional observations from a re-analysis of the deposited data

Results flagged for a closer look

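In each of the 16 groups the highest and the lowest Zbtb16 value were set against the rest, and 3 groups had a single male far above the others. Replicate 4 of group 18 (cohort C, 8% CCl4) had 31.5 CPM in liver, replicate 4 of group 19 (cohort C, 50% CCl4) had 11.3 CPM and replicate 5 of group 22 (cohort D, 50% CCl4) had 14.2 CPM. A chance rate of about 1 in 20 groups would hold for normally distributed values. These CPM values are skewed within groups, so the rate here is not known. All 3 livers were taken on necropsy date 2, 1 of the 2 dates with the higher Zbtb16 levels in liver, and the part of the date in these values was not tested.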

How the results depend on the processing

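The F0 difference of Zbtb16 in liver held its direction and stayed past the threshold in all 16 alternatives, from -2.58 to -2.10 (adjusted p 9.29e-15 to 0.0398). The replicate block changed the call of the kidney F0 difference (-2.29) and no other call, and it moved the number of genes called for F0 treatment from 1697 to 1226 in liver and from 2 to 6 in kidney. The kidney F0 difference also passed with the date as a block (-2.22) and in DESeq2 (-2.16). Over sires it was -2.19, with an exact p for this gene alone that was not adjusted over genes. With single animals left out (limma-trend) it ran from -2.58 to -2.12, and it passed without replicate 1 or 2 of group 14 or replicate 4 of group 17. Cohort D against A at vehicle lost its call in liver without date 4 (-3.42), and in kidney without date 2 (-3.54) or date 4 (-3.35). In kidney it ran from -3.51 to -3.11 with animals left out, losing the call without replicate 9 of group 11 or replicate 1 or 2 of group 20. Kidney minus liver moved to -1.20 under TMM of both organs. The cause was not tested, and a left-out date also leaves fewer animals.

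The changes of an effect between cohorts or doses had wide intervals around 0, passed in no alternative and turned their sign in several. For the F0 effect at 50% against vehicle these were the library totals (-0.11), the replicate block (-0.24), the date block (-0.27), date 1 left out (-0.084), date 2 left out (-0.72) and limma-trend (-0.12, and -0.40 to 0.11 with animals left out). For 8% in cohort B against A they were the replicate block (-0.055), the date block (-0.0035), dates 1 (-0.16) and 2 (-0.83) left out, and -0.41 to 0.54 with animals left out. For 8% in C against A they were length offsets (-0.0034), the replicate block (-0.14), the date block (-0.11), dates 1, 2 and 3 left out (-0.15, -1.20 and -0.025), DESeq2 (-0.0016), limma-trend (-0.21) and -0.65 to 0.10 with animals left out. For 50% they were, in B against A, date 4 left out (1.0), limma-trend (0.25) and animals left out (-0.31 to 0.66). In C against A it was date 4 left out (0.35), and in D against A the date block (-0.043), date 2 left out (-1.18) and animals left out (-0.10 to 0.77). The difference in transcript length at 50% turned to -1.86 bases by medians.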
